A study of Mus musculus with 8 samples.

Results

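The genes described here are those of the transforming growth factor beta (TGF-beta) and bone morphogenetic protein (BMP) pathway. They were chosen by symbol: the TGF-beta ligands and receptors, genes whose symbols begin with Bmp and a digit, Bmpr or Acvr, the Smads, the activin subunits of the Inhb series, the latent TGF-beta binding proteins, Id1 to Id4, and Tgfbi, Nog, Grem1, Fst and Chrd. The expression table has 24918 entries, and 50 of those that match these names are the members. A further 2, Bmp10 and Inhbe, match but are at 0 in every library and were left out. Of these, 41 had a mean log2 value of at least 5 over the 8 libraries and were tested. The lowest group mean among them was 5.44, so no member was tested through a single group alone.

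RNA of whole corneas from male mice aged 3 months, on a C57BL/6J/FVB background, was sequenced. The controls were GRflox littermates (labelled GRloxP/loxP-PAX6+/+), in which both copies of the glucocorticoid receptor gene are floxed and no Cre is present. The corneaGRKO mice (GRloxP/loxP-PAX6Cre/+) carry the same floxed gene and Cre under the P0 promoter of Pax6, which is meant to delete the receptor in the corneal epithelium. There were 4 libraries a group, which carry the replicate numbers 1, 3, 4 and 5, and 4 to 6 corneas were pooled for each. Stroma and endothelium in the sample are not the cells Cre was aimed at, and the controls had no Cre, so loss of the receptor and presence of Cre cannot be told apart. The study set the groups side by side to learn what the receptor does in corneal development, inflammation and vessel growth.

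TGF-beta and BMP ligands are secreted dimers. TGF-beta is held latent in the matrix by latent TGF-beta binding proteins until it is released, and antagonists such as noggin, chordin and gremlin trap BMPs before they reach a receptor. A ligand joins type II and type I receptor kinases, the type I kinase phosphorylates receptor Smads (Smad2 and Smad3 for TGF-beta and activin, Smad1, Smad5 and Smad9 for BMP), and these enter the nucleus with Smad4, while Smad6 and Smad7 inhibit. In the cornea TGF-beta is known for turning keratocytes into myofibroblasts after wounding, and the Id genes, which encode helix-loop-helix proteins that block DNA binding by their partners, are classical BMP targets.

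The targeted gene was lower in the corneaGRKO libraries, as in their labels: Nr3c1, which encodes the glucocorticoid receptor, differed by -0.47 on the log2 scale (SE 0.064, n = 4 per group, limma adjusted p = 0.00767), with no overlap between groups. Defining genes of the 3 corneal layers were present in GRflox, with mean log2 values of 20.11 for the epithelial keratin gene Krt12, 14.68 for the stromal gene Kera and 13.33 for the endothelial transporter gene Slc4a11. Library corneaGRKO replicate 4 stood apart. Its photoreceptor list mean was 1.63 above the GRflox mean on the log2 scale and its conjunctival list mean 0.94 above, against 0.0729 to 0.57 and 0.35 to 0.45 in the other corneaGRKO libraries. Values are log2 normalized expression without read counts, so the exact depth of each library is unknown. On this scale weakly expressed genes spread very little between libraries. In RNA of whole tissue, a change in the number of cells of a type and a change in RNA per cell cannot be told apart.

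Divided by exon length, the RNA levels of the members in GRflox corneas spanned a wide range, and every value in this paragraph is a log2 normalized level per kilobase of exons, as a mean of 4 libraries. Tgfbi, which encodes the secreted matrix protein keratoepithelin, had the highest level at 14.04, followed by Id2 at 10.97, Ltbp3 at 10.10 and Ltbp4 at 9.57. The TGF-beta ligands were ordered Tgfb1 (8.53), Tgfb3 (7.67) and Tgfb2 (6.32), and their ranges over the 4 libraries did not overlap. Among type I receptors Tgfbr1 stood at 9.51, Acvr1b at 9.35, Bmpr1a at 9.21, Acvr1 at 7.94 and Acvrl1 at 5.41, so that the endothelial receptor gene Acvrl1 was the lowest of those tested. The tested type II receptors were close to each other, with Tgfbr2 at 8.48, Acvr2a at 7.90 and Bmpr2 at 7.87, and the ranges of Acvr2a and Bmpr2 overlapped. The common Smad gene Smad4 (9.51) and Smad3 (9.26) lay above Smad5 (8.30), Smad2 (7.87), Smad1 (7.15) and Smad9 (3.01). All 6 tested BMP ligands lay below the 3 tested receptors of type II, with Bmp3 at 7.10, Bmp7 at 6.98, Bmp6 at 5.35, Bmp15 at 4.83, Bmp4 at 4.62 and Bmp2 at 4.01. Among the tested members in this order, 17 of 40 neighbouring pairs had ranges that did not overlap over the GRflox libraries.

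**Figure D1:**
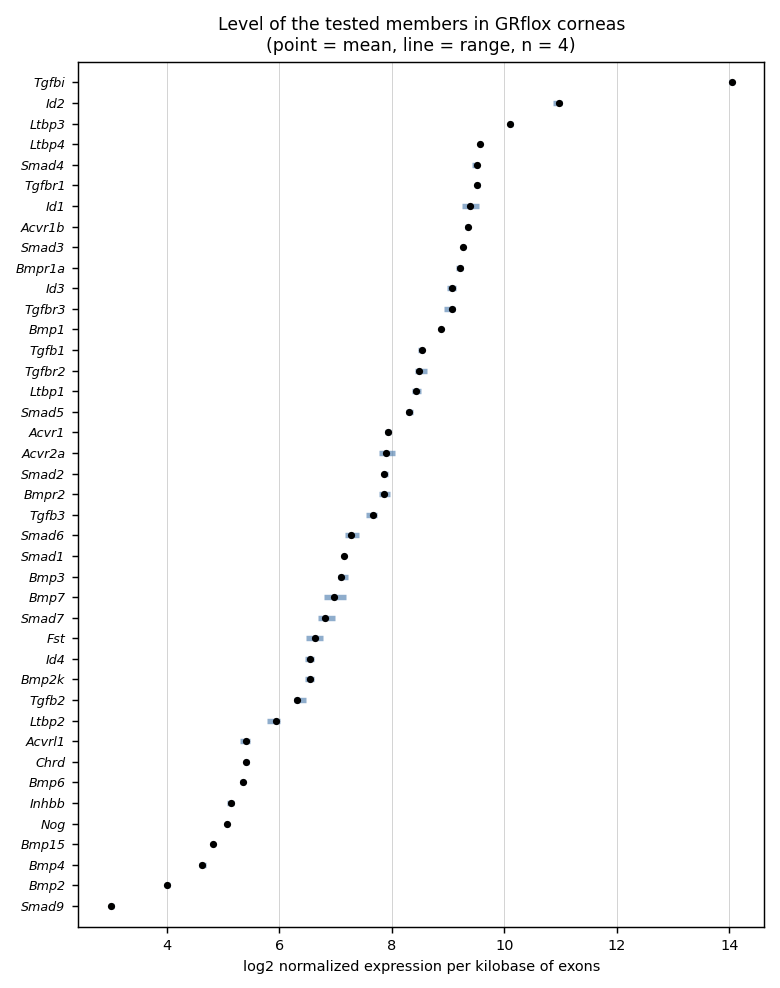
Level of each tested member in GRflox corneas, as log2 normalized expression per kilobase of exons (x axis); points are means and lines the range over 4 libraries. Tgfbi lies at 14.04, Id2 at 10.97, and Smad9 is lowest at 3.01.

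Of the 41 tested members, 2 passed a limma adjusted p of 0.05 in corneaGRKO against GRflox, both higher: Id1 and Ltbp2. Over all 13269 tested entries 1.85% passed in either direction, 1.33% as higher and 0.52% as lower. At an unadjusted p of 0.05, 12 of the 41 members were below the threshold, against 16.5% of all tested entries. The groups did not overlap for 9 members as higher and for 2 as lower, or 22.0% and 4.88% of the 41, beside 5.89% and 4.61% of all tested entries, or 10.5% in either direction. Most differences were small, but not smaller than those of other genes. The median log2 difference of the tested members was 0.0444, beside -0.00867 over all tested entries. Of the 41 members 25 differed by less than 0.1, beside 10216 of the 13269 tested entries. The median absolute log2 difference was 0.0668 for the members and 0.0524 for all tested entries. The 2 calls were near the threshold and were lost in several fits with a library left out. Over all 18 alternative fits listed below, the log2 difference ran from 0.3 to 0.53 for Id1 and from 0.46 to 0.69 for Ltbp2. No member passed without GRflox replicate 1, 3, 4 or 5, where 0.716%, 0.859%, 1.72% and 0.512% of all tested entries passed. None passed without corneaGRKO replicate 3 either, where 0.626% did. In those fits 10 to 13 members were below an unadjusted p of 0.05, beside 1689 to 3268 of the 13269 tested entries. The largest of these counts, 13 members and 3268 entries, came without GRflox replicate 4. Members past the adjusted threshold numbered 1 without corneaGRKO replicate 4 (1.87% of all entries) and 1 without corneaGRKO replicates 1 and 4 together (2.1%). They numbered 2 without corneaGRKO replicate 5 (1.03%) and 5 without corneaGRKO replicate 1 (4.33%). The 5 were Id1, Ltbp2, Tgfbr2, Acvrl1 and Tgfb3, all higher.

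**Figure D2:**
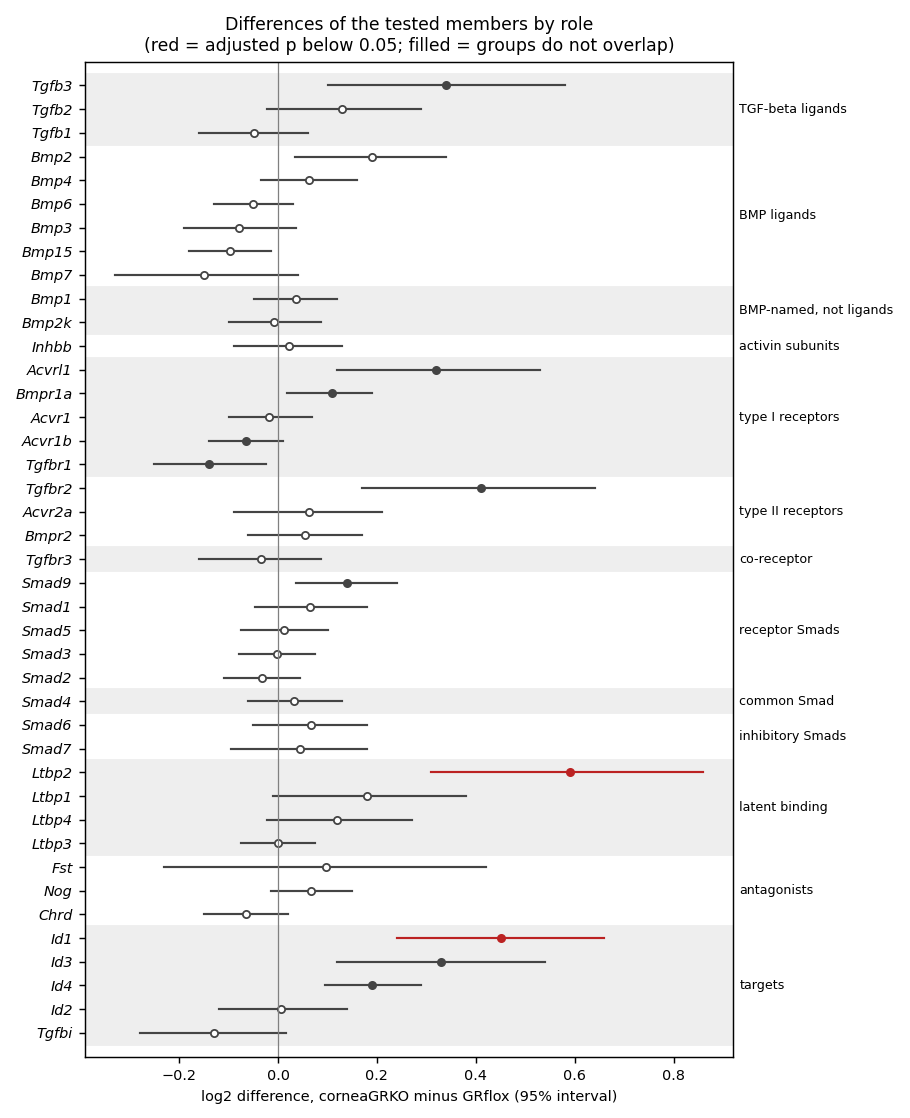
Log2 difference of each tested member, corneaGRKO minus GRflox (x axis), with its 95% interval from limma, grouped by role (n = 4 per group). Ltbp2 (0.59) and Id1 (0.45), in red, passed the adjusted threshold; filled points mark members whose groups do not overlap.

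Among the Id genes, Id1 rose in corneaGRKO. Id1 (Entrez gene 15901, chromosome 2) had log2 values of 9.67, 9.77, 9.50 and 9.47 in GRflox replicates 1, 3, 4 and 5, and of 10.16, 9.98, 10.24 and 9.83 in corneaGRKO replicates 1, 3, 4 and 5. All 4 corneaGRKO values lay above all 4 GRflox values, with replicates 4 and 1 highest. The group means were 9.60 ± 0.141 (SD) and 10.05 ± 0.184, a log2 difference of 0.45 (SE 0.094, 95% interval 0.24 to 0.66, n = 4 per group, limma adjusted p = 0.0442), or 1.37-fold on the deposited scale. With GRflox replicate 1 left out the limma adjusted p was 0.104 and the call was lost, as it was without GRflox replicate 3 (0.052), 4 (0.0704) or 5 (0.145). It was also lost on leaving out corneaGRKO replicate 3 (0.102) or 4 (0.0626), and without corneaGRKO replicates 1 and 4 together (0.138, with a log2 difference of 0.3). Id1 is strongly expressed in blood vessel endothelium. Of 10 vessel endothelium markers, 0 passed the limma test (4 at an unadjusted p of 0.05), and their summed log2 level ran from 10.92 to 11.05 in GRflox and from 10.92 to 11.12 in corneaGRKO. Of the 10 differences 9 were positive, with a median of 0.15, led by Flt1 (0.57, limma adjusted p = 0.0504). Kdr, with the highest GRflox mean of the list (9.99), weighs most in the sum and had a log2 difference of -0.0751. No marker of that list was at 0 and its part in the result was not tested.

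Id4 and Id3 did not pass. Id4, which acts in neural and epithelial stem cells, had values of 8.40, 8.52, 8.52 and 8.55 in GRflox and of 8.70, 8.73, 8.70 and 8.64 in corneaGRKO. The groups did not overlap and the corneaGRKO values lay close together, with a log2 difference of 0.19 (SE 0.0444, limma adjusted p = 0.0583, n = 4 per group). Id3 had values of 9.45, 9.50, 9.34 and 9.46 in GRflox and of 9.72, 9.65, 10.09 and 9.61 in corneaGRKO. Here too the groups did not overlap, and corneaGRKO replicate 4 was well above the other 3 (log2 difference 0.33, SE 0.0938, limma adjusted p = 0.116, n = 4 per group). Its difference was 0.22 without corneaGRKO replicate 4 and 0.19 without corneaGRKO replicates 1 and 4. Id2, the Id gene with the highest level per length in GRflox, had values of 12.27, 12.28, 12.15 and 12.31 in GRflox and 12.41, 12.27, 12.15 and 12.20 in corneaGRKO. Its groups overlapped, and the log2 difference was 0.00599 with a 95% interval from -0.12 to 0.14.

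Tgfbi, named for its induction by TGF-beta and mutated in human corneal dystrophies, had values of 15.51, 15.47, 15.51 and 15.43 in GRflox and of 15.42, 15.44, 15.15 and 15.39 in corneaGRKO. The groups overlapped through corneaGRKO replicate 3, and replicate 4 was lowest by a wide margin (log2 difference -0.13, 95% interval -0.28 to 0.0166, limma adjusted p = 0.354, n = 4 per group). Without that library the difference was -0.0659.

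**Figure D3:**
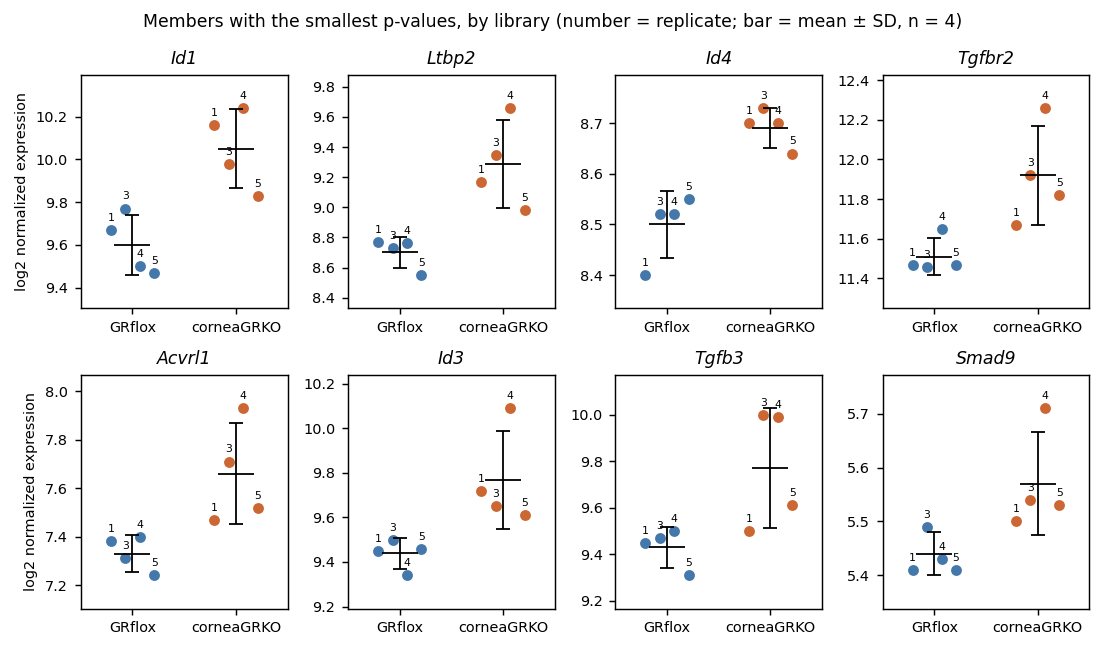
Log2 normalized expression (y axis) in each of the 4 GRflox and 4 corneaGRKO libraries for the 8 members with the smallest p-values; digits are replicate numbers and bars show mean ± SD. The groups do not overlap in any of the 8 panels, and in Id1, Ltbp2, Tgfbr2, Acvrl1, Id3 and Smad9 corneaGRKO replicate 4 is the highest library.

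The 250 bases before the RefSeq transcription starts of Id2, Id3 and Id4 are shown to set the Id genes beside each other, and those of Ltbp2 and Tgfbr2 as the other members with the largest differences (GRCm38.p6, printed in the direction of transcription). Capitals mark GGCGCC, a GC-rich Smad motif, and CAGAC or its complement GTCTG, the Smad box. These motifs were chosen with the sequences in view. Id1, Acvrl1 and Tgfb3 have no entry in the sequence table used here.
Id2 (chr12:25096093-25096342, minus strand): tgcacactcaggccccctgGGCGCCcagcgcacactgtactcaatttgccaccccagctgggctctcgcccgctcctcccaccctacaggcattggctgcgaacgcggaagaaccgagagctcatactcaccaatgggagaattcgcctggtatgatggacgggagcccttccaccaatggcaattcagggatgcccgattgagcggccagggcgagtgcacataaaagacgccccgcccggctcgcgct
Id3 (chr4:136143572-136143821, plus strand): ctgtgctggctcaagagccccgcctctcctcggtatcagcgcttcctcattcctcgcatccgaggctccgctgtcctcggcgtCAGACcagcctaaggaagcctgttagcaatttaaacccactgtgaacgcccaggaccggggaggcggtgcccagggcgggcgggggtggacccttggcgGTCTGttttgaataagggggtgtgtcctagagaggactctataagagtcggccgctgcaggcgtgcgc
Id4 (chr13:48260866-48261115, plus strand): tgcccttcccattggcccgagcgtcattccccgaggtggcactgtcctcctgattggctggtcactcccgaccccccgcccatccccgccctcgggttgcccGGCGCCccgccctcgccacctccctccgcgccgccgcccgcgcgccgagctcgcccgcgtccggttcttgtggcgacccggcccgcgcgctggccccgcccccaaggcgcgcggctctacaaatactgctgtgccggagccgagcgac
Ltbp2 (chr12:84876492-84876741, minus strand): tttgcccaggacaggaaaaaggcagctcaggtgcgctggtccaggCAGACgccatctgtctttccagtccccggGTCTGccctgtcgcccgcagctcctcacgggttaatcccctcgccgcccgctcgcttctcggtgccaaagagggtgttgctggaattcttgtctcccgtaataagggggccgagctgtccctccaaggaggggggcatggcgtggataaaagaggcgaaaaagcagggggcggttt
Tgfbr2 (chr9:116175364-116175613, minus strand): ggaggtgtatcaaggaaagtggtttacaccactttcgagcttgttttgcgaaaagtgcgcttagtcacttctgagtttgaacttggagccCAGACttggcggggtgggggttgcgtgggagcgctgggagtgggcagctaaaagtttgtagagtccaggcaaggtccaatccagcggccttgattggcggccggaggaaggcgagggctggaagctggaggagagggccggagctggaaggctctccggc
GGCGCC was present in the windows of Id2 and Id4, and in 9.59% of all 32851 windows of the same length. CAGAC, on either strand, occurred at 2 places in Id3, 2 in Ltbp2 and 1 in Tgfbr2, and in 42.2% of all windows. The Smad palindrome GTCTAGAC (0.167% of all windows), the palindromic glucocorticoid response element (AGAACA and TGTTCT with NNN between them, 0.00913%) and its single arm AGAACA (16.1%), each searched on both strands, were not found in these 5 windows. The single arm is part of the full element. The Smad box is not contained in GTCTAGAC, and the full element can hold it only where the bases at NNN complete it. The GC content of the windows ran from 58.4% for Tgfbr2 to 75.6% for Id4, beside a median of 52.4% over all windows.

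Among the latent TGF-beta binding proteins, which tie latent TGF-beta to the matrix, Ltbp2 rose. Its product binds fibrillin microfibrils and, unlike the other binding proteins, does not bind latent TGF-beta, and LTBP2 mutations in people cause glaucoma and lens displacement. Ltbp2 (Entrez gene 16997, chromosome 12) had log2 values of 8.77, 8.73, 8.76 and 8.55 in GRflox and of 9.17, 9.35, 9.66 and 8.98 in corneaGRKO. All corneaGRKO libraries lay above all GRflox libraries, with replicate 4 highest and replicate 5 lowest among them. The means were 8.70 ± 0.103 (SD) and 9.29 ± 0.292, a log2 difference of 0.59 (SE 0.123, 95% interval 0.31 to 0.86, n = 4 per group, limma adjusted p = 0.0448), or 1.5-fold. With GRflox replicate 1 left out the limma adjusted p was 0.112 and the call was lost, as it was without GRflox replicate 3 (0.106), 4 (0.065) or 5 (0.148), without corneaGRKO replicate 3 (0.142), and without corneaGRKO replicates 1 and 4 together (0.0577, with a log2 difference of 0.46).

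The other 3 binding protein genes did not pass. Ltbp1 had values of 11.27, 11.19, 11.31 and 11.15 in GRflox and of 11.21, 11.37, 11.69 and 11.38 in corneaGRKO, overlapping through corneaGRKO replicate 1 (log2 difference 0.18, SE 0.0873, limma adjusted p = 0.327, n = 4 per group). Without corneaGRKO replicate 4 the difference of Ltbp1 was 0.091. Ltbp4 had values of 12.09 to 12.15 in GRflox and of 12.15, 12.21, 12.46 and 12.15 in corneaGRKO, where replicate 4 alone stood well above the rest (log2 difference 0.12, limma adjusted p = 0.374), and without it the difference was 0.0495. Ltbp3 had ranges of 12.44 to 12.53 and 12.46 to 12.50, and the 95% interval of its log2 difference ran from -0.0746 to 0.0754.

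None of the 3 TGF-beta ligand genes passed the limma test, and 1 was below an unadjusted p of 0.05. Tgfb3, which encodes the isoform linked in mammalian embryos to scarless healing and palate fusion, had values of 9.45, 9.47, 9.50 and 9.31 in GRflox and of 9.50, 10.00, 9.99 and 9.61 in corneaGRKO. Replicates 3 and 4 of corneaGRKO were high, and replicate 1 exceeded the highest GRflox library only beyond the second decimal (log2 difference 0.34, SE 0.109, limma adjusted p = 0.148, n = 4 per group). It passed without corneaGRKO replicate 1 (limma adjusted p = 0.0373). Tgfb2, the main isoform of the aqueous humour, ranged from 8.64 to 8.86 in GRflox and from 8.69 to 8.99 in corneaGRKO (log2 difference 0.13, limma adjusted p = 0.373, and 0.0797 without corneaGRKO replicate 4), and Tgfb1 from 9.59 to 9.70 and from 9.51 to 9.71 (-0.0478, limma adjusted p = 0.641). Both genes overlapped between groups.

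No BMP ligand gene passed among the 6 tested, and 2 were below an unadjusted p of 0.05. Bmp2, an osteogenic ligand, had values of 5.82, 5.85, 5.88 and 5.81 in GRflox and of 5.87, 6.03, 6.25 and 5.95 in corneaGRKO, with overlap through corneaGRKO replicate 1 and replicate 4 highest (log2 difference 0.19, SE 0.0686, limma adjusted p = 0.202, n = 4 per group). Without replicate 4 the difference was 0.11. Bmp15, known as an oocyte growth factor, had values of 6.45, 6.42, 6.44 and 6.44 in GRflox and of 6.44, 6.30, 6.32 and 6.31 in corneaGRKO. Its replicates 3, 4 and 5 of corneaGRKO lay below every GRflox library while replicate 1 lay among them (log2 difference -0.0965, SE 0.0373, limma adjusted p = 0.226, n = 4 per group). Bmp7, which is required for eye development in mice, had the widest GRflox spread of the BMP ligands, from 8.68 to 9.05, and values of 8.64 to 8.78 in corneaGRKO (log2 difference -0.15, limma adjusted p = 0.41). Log2 differences of Bmp3, which opposes other BMPs (-0.0786), Bmp4 (0.0633) and Bmp6 (-0.0513) had limma adjusted p-values from 0.468 to 0.506. Bmp5, Bmp8a and Bmp8b were below the filter, with GRflox means of 2.57, 1.59 and 1.93, and Bmp8a and Bmp8b are near-identical genes whose values are uncertain where reads could be shared. The 2 genes that carry a Bmp name but encode no ligand, the procollagen protease gene Bmp1 and the kinase gene Bmp2k, had log2 differences of 0.0361 and -0.00786, and neither passed (0 below an unadjusted p of 0.05). Of the activin subunits only Inhbb was tested, with a log2 difference of 0.0216 (95% interval -0.0901 to 0.13), while Inhba and Inhbc had GRflox means of 1.69 and -1.99.

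The antagonist genes Nog, Chrd and Fst did not pass, with 0 below an unadjusted p of 0.05. Noggin, encoded by Nog, binds BMPs directly; its gene ranged from 5.81 to 5.86 in GRflox and had values of 5.94, 5.95, 5.92 and 5.81 in corneaGRKO, where replicate 5 alone lay within the GRflox range (log2 difference 0.0668, limma adjusted p = 0.386). Fst, which encodes the activin trap follistatin, spread widely in corneaGRKO, with values of 7.85, 8.30, 8.68 and 8.10 against 7.99 to 8.28 in GRflox (log2 difference 0.0973, 95% interval -0.23 to 0.42), and its difference was -0.0514 without corneaGRKO replicate 4. Chrd ranged from 7.36 to 7.45 in GRflox and from 7.28 to 7.38 in corneaGRKO (-0.0652, limma adjusted p = 0.423). Grem1, with a GRflox mean of 0.98, was below the filter.

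Receptor genes differed in direction, and none of the 9 tested passed the limma test, while 4 were below an unadjusted p of 0.05. Tgfbr2, the type II receptor of TGF-beta, had values of 11.47, 11.46, 11.65 and 11.47 in GRflox and of 11.67, 11.92, 12.26 and 11.82 in corneaGRKO. The groups were separated by a small gap between GRflox replicate 4 and corneaGRKO replicate 1, and corneaGRKO replicate 4 was highest (log2 difference 0.41, SE 0.106, 95% interval 0.17 to 0.64, limma adjusted p = 0.0873, n = 4 per group). It passed without corneaGRKO replicate 1 (limma adjusted p = 0.0262) and without corneaGRKO replicates 1 and 4 together (0.026, with a log2 difference of 0.36). Tgfbr1, its type I partner, had values of 12.18, 12.16, 12.18 and 12.26 in GRflox and of 12.14, 12.08, 11.91 and 12.10 in corneaGRKO, so that these groups were separated in the other direction (log2 difference -0.14, SE 0.0502, limma adjusted p = 0.202, n = 4 per group). The difference of Tgfbr1 was -0.0888 without corneaGRKO replicate 4.

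Acvrl1, which encodes ALK1, the type I receptor of vessel endothelium for BMP9 and BMP10, had values of 7.38, 7.31, 7.40 and 7.24 in GRflox and of 7.47, 7.71, 7.93 and 7.52 in corneaGRKO. The groups did not overlap and corneaGRKO replicate 4 was highest (log2 difference 0.32, SE 0.0907, limma adjusted p = 0.109, n = 4 per group). It passed without corneaGRKO replicate 1 (limma adjusted p = 0.0412). The vessel endothelium list mean in corneaGRKO replicates 1, 3, 4 and 5 was 0.036, 0.27, 0.26 and 0.059 above the GRflox mean, and its part in the values of Acvrl1 was not tested. Bmpr1a, a type I receptor of BMPs, had values of 11.74, 11.77, 11.87 and 11.86 in GRflox and of 11.88, 11.90, 11.95 and 11.93 in corneaGRKO, with groups that lay next to each other without overlap (log2 difference 0.11, SE 0.0391, limma adjusted p = 0.204, n = 4 per group). Acvr1b, an activin type I receptor, was separated as lower, from 11.46 to 11.52 in GRflox and from 11.38 to 11.45 in corneaGRKO (-0.0648, limma adjusted p = 0.36). Acvr1, Acvr2a, Bmpr2 and the co-receptor Tgfbr3 overlapped between groups, with log2 differences from -0.0349 to 0.0625. Acvr1c, Bmpr1b and Acvr2b were below the filter, with GRflox means of -0.06, 2.04 and 4.31.

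The Smad genes had small differences. None of the 8 passed the limma test, and 1 was below an unadjusted p of 0.05. Smad9, the least expressed receptor Smad of the BMP branch, had values of 5.41, 5.49, 5.43 and 5.41 in GRflox and of 5.50, 5.54, 5.71 and 5.53 in corneaGRKO. The groups were adjacent without overlap (log2 difference 0.14, SE 0.046, limma adjusted p = 0.166, n = 4 per group), and the difference was 0.0906 without corneaGRKO replicate 4. Smad1 was even across GRflox, from 9.52 to 9.53, and had values of 9.53, 9.56, 9.74 and 9.52 in corneaGRKO, where replicate 4 alone was high: the log2 difference was 0.0651 with it and 0.014 without it. The 95% intervals of the log2 difference were -0.11 to 0.0442 for Smad2, -0.0799 to 0.0755 for Smad3, -0.0748 to 0.1 for Smad5 and -0.0614 to 0.13 for Smad4. The inhibitory Smad genes Smad6 and Smad7, which BMP and TGF-beta signalling induce as feedback, had log2 differences of 0.0668 (-0.051 to 0.18) and 0.0444 (-0.0961 to 0.18).

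**Figure D4:**
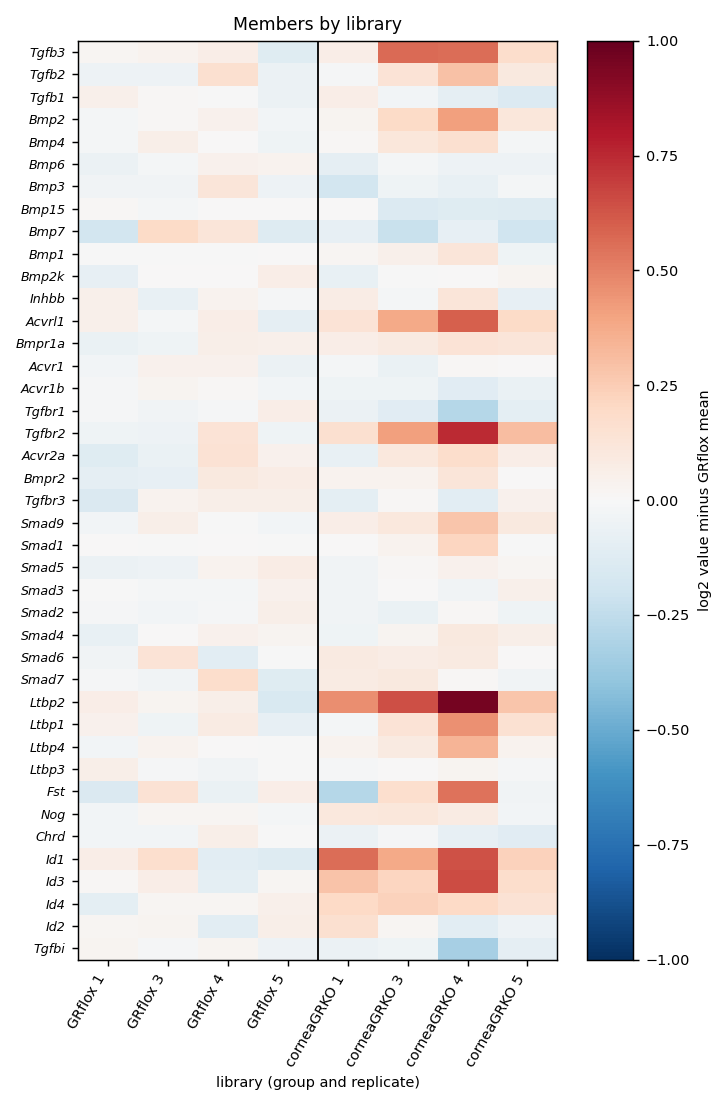
Log2 value of each tested member minus its GRflox mean (colour) in the 8 libraries (columns), ordered by role (rows). Ltbp2, Tgfbr2, Id1, Id3 and Acvrl1 are above the GRflox mean in all 4 corneaGRKO libraries, and 19 of 41 members have their highest value in corneaGRKO replicate 4.

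Over the 41 tested members, corneaGRKO replicate 4 was most often the extreme library. It held the highest value of all 8 libraries for 19 members and the lowest for 4, together 56.1% of members, beside 42.0% of all tested entries. It lay above every GRflox library for 22 members, against 14, 17 and 13 for corneaGRKO replicates 1, 3 and 5. The same share over all tested entries was 26.7% in replicate 4 and 18.8%, 21.1% and 19.8% in replicates 1, 3 and 5. Without corneaGRKO replicate 4 the median log2 difference of the members was 0.014, and 25 of 41 differences were positive, against 27 with it.

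Several marker lists of neighbouring or minor cell types were higher in corneaGRKO, most of all in replicate 4. The order of the other corneaGRKO libraries differed between lists. Replicate 1 was second in the photoreceptor list (list mean 0.57 above GRflox) and lowest in the macrophage list (0.12). Conjunctival markers rose for 3 of 7 tested genes, macrophage markers for 4 of 10 and pigmented and uveal markers for 1 of 5, beside 1.33% of all tested entries. Their summed log2 level in GRflox ran from 15.29 to 15.65, from 11.10 to 11.24 and from 10.70 to 10.81, and in corneaGRKO from 15.84 to 16.59, from 11.33 to 11.73 and from 10.90 to 11.25. The conjunctival genes past the threshold were the keratin genes Krt8, Krt19 and Krt13. All 7 tested differences of that list were positive, but those of Krt18 (0.0595) and Agr2 (0.0223) were small. Its genes Muc5ac, Muc5b, Spdef and Tff1 were below the filter, with GRflox means of 1.94, 1.80, 4.16 and -3.18 and corneaGRKO means of 1.96, 1.80, 4.19 and -3.18. Of the pericyte and smooth muscle markers 0 of 5 tested passed (3 at an unadjusted p of 0.05), with summed levels of 11.45 to 11.53 and 11.47 to 11.84, and of the photoreceptor markers 0 of 5 (1 at an unadjusted p of 0.05), with summed levels of 8.58 to 8.63 and 8.67 to 10.40. In the stromal keratocyte list 3 of 12 tested genes (Col5a1, Col6a2 and Kera) fell and 0 rose, while 7 were below an unadjusted p of 0.05, 7 of the 12 differences were positive and the median was 0.0794. The positive ones with an unadjusted p under 0.05 were those of Fmod (log2 difference 0.74, limma adjusted p = 0.0515), Thy1 (0.34, 0.103), Ogn (0.38, 0.151) and Ptgds (0.38, 0.185). The summed levels of this list ran from 18.50 to 18.62 and from 18.41 to 18.69. Of corneal epithelium markers 0 of 15 passed (3 at an unadjusted p of 0.05), with summed levels of 21.29 to 21.50 and 21.06 to 21.46. Those 3 went both ways: Krt15 (log2 difference 0.77, limma adjusted p = 0.0829) and Krt14 (0.48, 0.191) were higher and Dsg1a (-0.22, 0.146) was lower. Of the 15 differences 6 were positive, and the median was -0.0482. The other lists had 0 past the threshold: corneal endothelium 0 of 8 (2 at an unadjusted p of 0.05), lens 0 of 6 (0) and Schwann cells and nerve 0 of 6 (4), while no skeletal muscle marker reached the filter. No marker in the table was at 0 in all libraries. The part of these cells in the values of Id1, Ltbp2, Tgfbr2 and Tgfb3 was not tested.

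**Figure D5:**
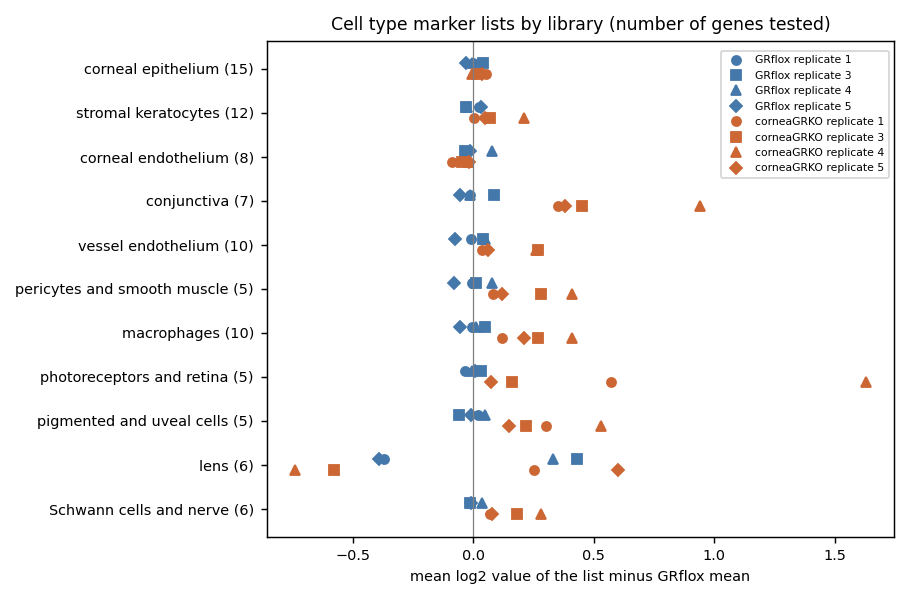
Mean log2 value of each marker list minus its GRflox mean (x axis) in each library, with the number of genes tested in brackets. The conjunctival, macrophage, photoreceptor and pigmented lists are above 0 in all 4 corneaGRKO libraries, with corneaGRKO replicate 4 highest at 0.94, 0.41, 1.63 and 0.53. So are the pericyte, Schwann cell, vessel and stromal keratocyte lists, with corneaGRKO replicate 4 at 0.41, 0.28, 0.26 and 0.21.

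Genes of the pathway outside the members were read from 6 lists, and 1 of 97 tested genes passed, beside 1.85% of all tested entries. At an unadjusted p of 0.05, 26 of the 97 were below the threshold, against 16.5% of all tested entries. Skil, Pmepa1 and Bambi are each counted in more than 1 list. Among BMP response genes, 1 of 8 fell and 0 rose (5 at an unadjusted p of 0.05), with a median log2 difference of 0.0756. Dlx5, a homeobox gene of craniofacial and bone development, fell by 0.19 on the log2 scale (SE 0.0365, n = 4 per group, limma adjusted p = 0.0316). Its values were 6.63, 6.69, 6.72 and 6.72 in GRflox and 6.52, 6.53, 6.44 and 6.51 in corneaGRKO, without overlap, opposite in sign to the difference of Id1. The call of Dlx5 was lost without GRflox replicate 3, 4 or 5 and on leaving out corneaGRKO replicate 3 or 5. In those settings 0 of the 97 passed. At an unadjusted p of 0.05, 21 to 28 of the 97 were below the threshold, beside 1693 to 3268 of all 13269 tested entries. The call of Dlx5 was also lost with corneaGRKO replicates 1 and 4 both left out, where 3 others of the 97 passed as higher. In the same list Bambi, which encodes a decoy receptor, had a log2 difference of 0.28 (limma adjusted p = 0.062) and Atoh8 of 0.23 (0.149).

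Among the 4 other ligands tested, none passed (2 at an unadjusted p of 0.05). Gdf10, also known as Bmp3b, had values of 6.03, 6.05, 6.02 and 6.01 in GRflox and of 6.29, 6.43, 6.76 and 6.26 in corneaGRKO, far apart beside the narrow GRflox spread (log2 difference 0.41, SE 0.0914, limma adjusted p = 0.0542, n = 4 per group). Inha, the inhibin alpha subunit, had a log2 difference of 0.23 (limma adjusted p = 0.139). Among 21 other antagonists and co-receptors 0 passed (8 at an unadjusted p of 0.05), with a median of 0.0657. Besides Bambi, the smallest p in that list was that of Twsg1, a BMP and chordin binding protein (log2 difference 0.17, limma adjusted p = 0.0701). Chrdl1, a BMP antagonist of the chordin family, had a larger log2 difference of 0.47 (limma adjusted p = 0.0884); it was named after its values were seen, and it passed without corneaGRKO replicate 1 or 4.

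Among 26 TGF-beta response genes 0 passed (8 at an unadjusted p of 0.05), with a median log2 difference of 0.12. Relative to the GRflox mean, the list mean was -0.00511, 0.19, 0.25 and 0.0222 in corneaGRKO replicates 1, 3, 4 and 5. The GRflox libraries ran from -0.0369 to 0.0592. The transcription factor gene Snai1 had a difference of 0.18 (limma adjusted p = 0.0612). Acta2, the smooth muscle actin gene that marks myofibroblasts, had values of 8.41, 8.44, 8.34 and 8.19 in GRflox and of 8.53, 8.67, 9.09 and 8.68 in corneaGRKO, with replicate 4 highest (log2 difference 0.39, SE 0.106, limma adjusted p = 0.0961, n = 4 per group). Acta2 is also on the pericyte and smooth muscle list given above. Of the 18 genes of latency, activation and processing 0 passed (3 at an unadjusted p of 0.05), led by the convertase gene Pcsk6 (log2 difference 0.2, limma adjusted p = 0.137) and Pcolce (0.2, 0.286), and of 23 intracellular regulators 0 passed (1 at an unadjusted p of 0.05), led by the ubiquitin ligase gene Nedd4l (0.13, 0.262) and Tgif2 (-0.0899, 0.331). The medians of these 2 lists were 0.032 and 0.0233.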

How the data were processed

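RNA of 8 whole-cornea libraries (4 GRflox, 4 corneaGRKO) was read as 75 nt pairs, with more than 40000000 reads per sample aligned, per the labels. The authors deposited log2 normalized expression values for 24918 entries. The submitters' processing notes name Bowtie2, HTSeq and DESeq2, and their versions are not given in the sources used here. How the log2 values were transformed and whether counting used strand is not stated, so overlapping antisense genes cannot be told apart. The build is mm9 in the notes and mm10 in the extraction protocol, so no coordinates of the expression entries are printed. The median SD over GRflox libraries was 0.0144 at mean log2 values of 2 to 3 and 0.0691 at 9 to 12. Beyond the stated bound of 40000000 reads, library depth is unknown, so no counting interval is given. The table held 0 value columns of no sample.

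In limma 3.58.1 (R 4.3.3), the 13269 entries whose values averaged 5 or more were fitted by group alone, with the variance following the mean. Tests were two-sided, at a Benjamini-Hochberg adjusted p of 0.05 over all 13269. Positive differences mean higher in corneaGRKO. Count models were not run. Intervals are 95% intervals from limma. P-values measure the spread between pools of corneas. No library was a duplicate: the most alike pair differed by a median of 0.0427 (absolute log2 difference).

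The members, the lists and the alternatives were chosen with earlier results of these data known. Values in every library are given by rule for members past the threshold and the 12 others with the smallest p, and in pathway lists for genes past the threshold and the next 2 by p; values of further members, and Chrdl1 and all values by library in pathway lists, were added after the data were seen. Exon lengths are unions of exons in the GENCODE basic annotation for GRCm38 and were found for all 50 members. Sequences are from RefSeq (GRCm38.p6), whose table held 37 of the 50 members. Chromosomes come from the RefSeq gene table, which matched all members. The alternatives were the replicate number as a block, library weights, robust moderation, a variance without trend, median centring, quantile normalization, a linear pseudocount of 16, no filter, a stricter filter (mean of 7), each library left out in turn, and corneaGRKO replicates 1 and 4 left out together.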

Additional observations from a re-analysis of the deposited data

Results flagged for a closer look

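Among the 82 sets of 4 libraries (41 tested members in 2 groups), 7 held a library that stood apart by Dixon's 95% critical value for the gap to its nearest neighbour, and chance flags about 1 set in 20. All were in single genes, and 6 of the 7 were GRflox libraries. GRflox replicate 4 was highest for Tgfbr2 (11.65, with the next at 11.47), Tgfb2 (8.86, next 8.65) and Bmp3 (10.1, next 9.95). GRflox replicate 5 was highest for Smad2 (11.03, next 10.96) and Tgfbr1 (12.26, next 12.18), and GRflox replicate 1 was lowest for Tgfbr3 (11.53, next 11.71). In corneaGRKO, replicate 5 was lowest for Smad6 (8.86, next 8.93).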

How the results depend on the processing

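Under the 18 alternatives, 8 of the 41 tested members changed sign at least once: Bmp2k, Fst, Id2, Inhbb, Ltbp3, Smad3, Smad5 and Tgfbr3, all with log2 differences of at most 0.0973 in size. The 14 members past the threshold or with the smallest p did not. The number of genes past the threshold (245), of members (2) and of other pathway genes (1) became 663, 5 and 11 with the replicate number as a block and 1980, 10 and 20 with library weights, which also turned the balance of all calls to 973 higher and 1007 lower. Whether same-numbered libraries form pairs is not settled by the correlations of their deviations. These were 0.514, -0.284, 0.259 and 0.0611 for numbers 1, 3, 4 and 5. GRflox replicates 1 and 5 correlated best with their own number, and GRflox replicates 3 and 4 with another. The members past the threshold under the block were Id1, Ltbp2, Tgfbr2, Acvrl1 and Tgfb3. With a filter at a mean of 7, where Dlx5 was not tested, other pathway genes past the threshold numbered 0 of 75. There 18 of the 75 had an unadjusted p below 0.05, beside 1731 of all 11201 entries tested. With median centring 3 other pathway genes passed the threshold. Without corneaGRKO replicates 1 and 4 together there were 1 member (Tgfbr2) and 3 other pathway genes. Leaving out single libraries gave 68 to 574 genes, 0 to 5 members and 0 to 10 other pathway genes. Over all 18 alternatives the limma adjusted p of Id1 ran from 0.0224 to 0.145 and passed in 11, and that of Ltbp2 from 0.013 to 0.148 and passed in 12. Where neither samples nor genes were left out, the cause of the shift was not tested. What depth limits is unknown, because the values hold no counts.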
